A study of Mus musculus with 6 samples.

Results

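Nuclei that carry transcripts of Slc17a6, the gene of vesicular glutamate transporter 2 (VGLUT2), were examined in snRNA-seq libraries of the brains of C57BL/6 S-56 mice. At P7, lysophosphatidic acid (LPA) or vehicle, the albumin carrier of the LPA, was injected into the right lateral ventricle, a model of post-hemorrhagic hydrocephalus, and brains without olfactory bulbs and cerebellum were collected at P15. Nuclei negative for NeuN, a protein of neuronal nuclei, were sorted, so the neurons described here are those that passed a sort meant to leave neurons out. There were 3 LPA libraries and 3 vehicle libraries, which the labels name as replicate brains. UMIs (unique molecular identifiers, 1 for each captured transcript) of Xist and Y-linked genes placed LPA 1, vehicle 1 and vehicle 3 as male and LPA 2, LPA 3 and vehicle 2 as female. Total UMIs ranged from 48852970 in vehicle 1 to 65688644 in vehicle 2.

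Members were chosen by their UMI counts of 8 genes. A nucleus was taken as a Slc17a6 nucleus if it had at least 3 UMIs of Slc17a6 and at least 10 of Meg3, a noncoding RNA abundant in neurons, with at most 1 UMI of Slc17a7, at most 3 of Baiap3, Ecel1 and Magel2 together and at most 2 of Mog and Mag together. All barcodes with at least 300 genes and at most 1% mitochondrial UMIs were eligible, which were 60724 of 63383. Of these, 220 had 3 or more Slc17a6 UMIs. The Meg3 limit left 218, the Slc17a7 limit 202, the limit on Baiap3, Ecel1 and Magel2 164, and the limit on Mog and Mag 147. The 147 nuclei were 30 in LPA 1, 26 in LPA 2, 29 in LPA 3, 21 in vehicle 1, 23 in vehicle 2 and 18 in vehicle 3. They had been labelled subcortical excitatory neurons, a label that the marker genes below bear out only in part, and they are called Slc17a6 nuclei here.

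Excitatory neurons load glutamate into synaptic vesicles through VGLUT1, encoded by Slc17a7, or VGLUT2, encoded by Slc17a6. In the mature forebrain, VGLUT1 is typical of cortical and hippocampal projection neurons, while VGLUT2 is typical of neurons of the thalamus, the medial habenula, the hypothalamus and the midbrain. VGLUT2 is also made by Cajal-Retzius cells, early-born neurons at the surface of the cortex and hippocampus that secrete reelin and are largely lost in the first postnatal weeks. NeuN, the antigen used for the sort, is the product of Rbfox3, and Cajal-Retzius cells are known for little or none of it. Slc17a6 lies on chromosome 7 from 51622006 to 51671119 on the plus strand and Slc17a7 on the same chromosome from 45163949 to 45176142, also on the plus strand (GRCm38).

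Because the rule asked for 3 Slc17a6 UMIs, most members sat at its limit. Exactly 3 UMIs were found in 88 nuclei, 4 in 34, 5 in 17 and 6 or more in 8, with a highest value of 7. Just outside, 296 nuclei met every other limit with 2 Slc17a6 UMIs. Slc17a7 was at 0 in 121 members and at 1 in 26, and 4 nuclei met all other limits with 2. At the limit on Baiap3, Ecel1 and Magel2, 14 members had 3 UMIs and 12 nuclei outside had 4, and at the limit on Mog and Mag 17 members had 2 and 3 nuclei outside had 3. Members had between 13 and 349 Meg3 UMIs. Such counts were rare in nuclei that should lack the gene: among 11196 nuclei with oligodendrocyte transcripts (3 or more UMIs of Mog and Mag, under 10 of Meg3), 1.05% had a Slc17a6 UMI and none had 3, at a median of 5600 UMIs per nucleus against 7496 in the members. Scrublet, a doublet caller, marked 34 of the 147 members, namely 8, 8 and 3 in LPA 1 to LPA 3 and 6, 5 and 4 in vehicle 1 to vehicle 3, while it marked between 16.1% and 19.4% of all barcodes of a library. Pairs of libraries shared between 268 and 303 barcodes, and 2456 barcodes (3.87%) occurred in more than 1 library, among them the barcodes of 5 members.

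As a group, the members carried the transcripts of neurons. Snap25, a SNARE protein of vesicle fusion, was detected in 91.2% of them and in 23.0% of the nuclei with oligodendrocyte transcripts. Glial transcripts were detected in most members as well. The myelin gene Mbp was found in 74.1% of them, against 98.4% of the nuclei with oligodendrocyte transcripts, and the astrocyte gene Slc1a2 in 76.2%, against 56.8%. The GABA-synthesis genes Gad1 and Gad2 and the GABA transporter gene Slc32a1 gave no UMI in 107 members, 1 or 2 in 25 and more than 2 in 15. In CPM, a gene's UMIs per 1000000 UMIs of the summed members, Slc17a6 was at 411 and Slc17a7 at 20.0, values that the rule fixes. The 11 genes of monoamine and cholinergic neurons summed to 28.5 CPM, and 4 of them had no UMI. The most abundant was Slc18a2, the vesicular monoamine transporter, at 10.0 CPM.

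Rbfox3 was lower in the Slc17a6 nuclei than in Slc17a7 nuclei of the same libraries. The Slc17a7 nuclei, 512 in all, had at least 3 UMIs of Slc17a7, at most 1 of Slc17a6 and the other limits of the rule. Summed Slc17a6 nuclei had 223, 192 and 267 CPM of Rbfox3 in LPA 1 to LPA 3 and 272, 225 and 329 in vehicle 1 to vehicle 3. Summed Slc17a7 nuclei had 664, 622 and 646 CPM in the LPA libraries and 578, 633 and 499 in the vehicle libraries. Members were lower in 6 of 6 libraries, and no library's member value reached the lowest value of the Slc17a7 nuclei. The mean was 251 ± 48.3 CPM against 607 ± 60.2 (SD, n = 6), with p = 0.0312 in a two-sided exact permutation test within libraries, the smallest p that 6 pairs allow. This comparison was chosen after its values were seen. A Rbfox3 UMI was present in 59.9% of members, in 94.1% of Slc17a7 nuclei, whose median depth was 8868 UMIs, and in 4.66% of the nuclei with oligodendrocyte transcripts.

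Clustering of the 147 members on variable genes other than the rule genes and marker genes gave 9 sub-clusters. Only 2 of them could be named from markers. Their genes are given as a description, since the same nuclei made the clusters.

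Sub-cluster 5, 19 nuclei, was Cajal-Retzius-like. Reln, which encodes the secreted protein reelin, was at 12824 CPM against 418 CPM in the other members. Trp73, a transcription factor gene of the p53 family that marks these cells, was at 883 CPM against 34.6, and Ndnf, the gene of a secreted neurotrophic protein, at 1861 CPM against 37.9. Each of the 3 genes was detected in all 19 nuclei, and Ebf3, a transcription factor gene of early-born neurons, in 18 of them. Rbfox3 was detected in 1 of the 19 and Slc17a7 in none, and no nucleus had more than 2 UMIs of the GABA genes. These nuclei were shallow, with a median of 4185 UMIs. Reln lies on chromosome 5 from 21884454 to 22344702 and Trp73 on chromosome 4 from 154056253 to 154140208, both on the minus strand (GRCm38). Over all nuclei kept, 613 (1.01%) had at least 10 UMIs of Reln, 1 of Trp73 and 10 of Meg3, a rule set after the sub-clusters had been seen. Of these 613, 303 had a Slc17a6 UMI, 168 had a Rbfox3 UMI and 27 were members, so the 3-UMI limit held back most nuclei of this kind.

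Sub-cluster 6, 14 nuclei, was thalamus-like. Tcf7l2 and Lef1, transcription factor genes of Wnt signalling that are typical of thalamic neurons, were detected in 14 and 13 of the 14 nuclei, at 994 and 774 CPM. Prkch, which encodes a protein kinase C, was detected in 85.7% of the nuclei and Ntng1, the gene of the axonal adhesion protein netrin-G1, in all of them, at 3423 CPM. Gbx2, an early thalamic transcription factor gene, had no UMI. Rnf220, the gene of a ubiquitin ligase, was at 1386 CPM against 71.9 in the other members, and Prox1, a homeobox gene, at 215 CPM against 17.1. Rbfox3 was detected in all 14, at 344 CPM, and the median depth was 12753 UMIs. Tcf7l2 was not particular to neurons in these libraries, since 58.2% of the nuclei with oligodendrocyte transcripts also had a UMI of it.

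Sub-cluster 7, 10 nuclei, had some genes of the list of habenular markers and remained unnamed. Nwd2, on the list of habenular markers, was at 5551 CPM against 217 CPM in the other members, in all 10 nuclei. Syt6, a synaptotagmin gene, was also found in all 10, and Tcf7l2 in all 10 at 761 CPM. Tac2, the gene of neurokinin B and typical of the medial habenula, was found in 5 of the 10, but Chrnb4 and Chrna3, subunits of the nicotinic receptor of the habenula, were found in 2 and in 1 nucleus. A name required 3 markers in at least 50% of the nuclei, and only Nwd2 and Tac2 of the habenular list reached that share. The large-conductance potassium channel gene Kcnma1 was at 9213 CPM here, against a highest value of 2611 CPM in any other sub-cluster.

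Sub-cluster 2, 24 nuclei, was led by Ebf2, a transcription factor gene, at 1445 CPM against 68.2 CPM in the other members. Nefm, the medium neurofilament chain of large axons, was detected in 83.3% of the nuclei, and Sema3a, a repulsive guidance ligand, in the same share. Ebf3 was detected in 95.8% and Tbr1, a transcription factor gene of the cortical plate and the olfactory bulb, in 45.8%. Trp73 had no UMI in any of these 24 nuclei and Reln was at 16.2 CPM, so Ebf3 was shared with the Cajal-Retzius-like nuclei, while Trp73 and most Reln transcripts were not. With 24 nuclei, a count of 0 allows up to 12.5% of nuclei with a Trp73 UMI. Slc17a7 was detected in 33.3% and Rbfox3 in 45.8%.

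Sub-cluster 1, 27 nuclei, was led by Hap1, the gene of a partner of huntingtin, at 369 CPM against 61.1 CPM, and by Cdh9, Vwc2l and the sodium channel gene Scn9a. Sim1, a transcription factor gene of the paraventricular hypothalamus, was found in 7 of the 27 nuclei, Otp in 3 and Nkx2-1 in 3, and the sub-cluster remained unnamed. Baiap3 was also among its leading genes, at 169 CPM against 20.4, although the rule limited its UMIs in each nucleus. Avp, the vasopressin gene, had 92 UMIs in 7 members, of which 94.6% lay in 2 nuclei.

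Sub-cluster 3, 23 nuclei, was led by Dpp10, an auxiliary subunit of A-type potassium channels, by Arpp21, and by Kcnj3, the gene of a G-protein-gated potassium channel. Sub-cluster 8, 7 nuclei, had Tfap2d, on the list of midbrain markers, in all 7 nuclei at 644 CPM against 27.7, beside Epha3 and Satb1. Both remained unnamed. None of the Hox genes on the list of hindbrain markers had a UMI in any member.

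Sub-clusters 4 and 9 were mixed. All 19 nuclei of sub-cluster 4 were marked by Scrublet, had a median of 13885 UMIs and carried the astrocyte genes Slc1a2 (1875 CPM against 295 in the other members) and Slc1a3 (633 CPM against 74.9). All 4 nuclei of sub-cluster 9 were marked as well. They carried Slc47a1, a transporter gene of the meninges, at 851 CPM against 7.87, together with Reln at 8016 CPM and Trp73 at 355 CPM. The clustering was repeated with 4 other settings. The 14 thalamus-like nuclei formed a cluster of their own in all 4, while the 19 Cajal-Retzius-like nuclei did so in 3 and lay in a cluster of 23 nuclei in the remaining one. Some unnamed sub-clusters held less well. With 15 neighbours and resolution 0.5, the 10 nuclei of sub-cluster 7 lay in a cluster of 32 and the 7 of sub-cluster 8 in a cluster of 30. With 10 neighbours and resolution 0.5, sub-cluster 8 lay in a cluster of 24, and 17 of the 23 nuclei of sub-cluster 3 stayed together.

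**Figure D1:**
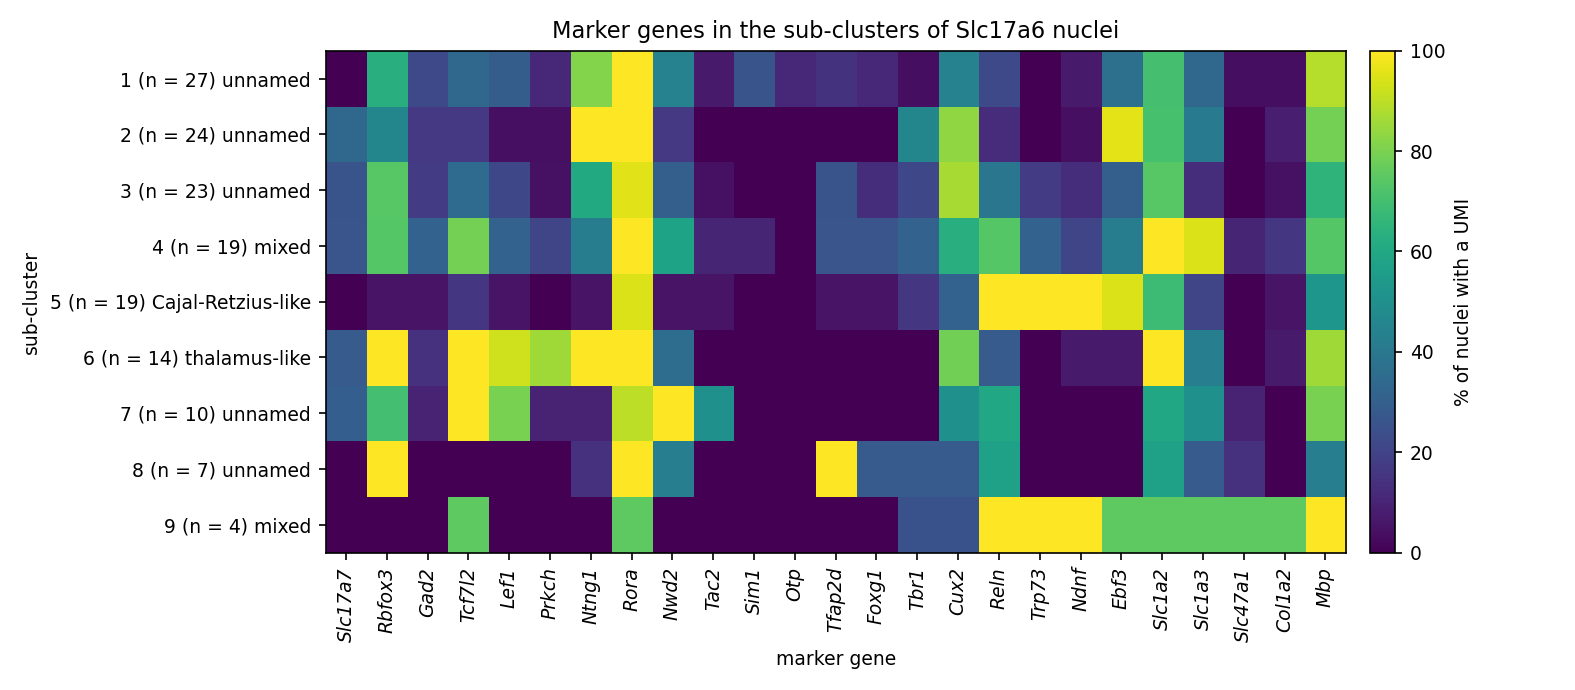
Share of nuclei with at least 1 UMI (colour, in percent) of 25 marker genes (columns) in the 9 sub-clusters of Slc17a6 nuclei (rows, with the number of nuclei). Reln, Trp73 and Ndnf fill sub-clusters 5 and 9, Tcf7l2 fills sub-clusters 6 and 7, and Rbfox3 reaches 100% in sub-clusters 6 and 8 and 5.26% in sub-cluster 5.

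The sub-clusters also differed in the genes of excitability, which is a description of the same nuclei. The Cajal-Retzius-like nuclei had the potassium channel genes Kcnh7 at 7148 CPM and Kcnb2 at 4180 CPM, against at most 908 and 1433 CPM in the other sub-clusters except sub-cluster 9, which also had Reln and Trp73. The calcium channel subunit gene Cacna2d2 was at 1025 CPM, and at most at 210 CPM outside sub-clusters 5 and 9. Grin2a, a subunit of the NMDA receptor, had no UMI in the 19 Cajal-Retzius-like nuclei, which allows up to 15.8% of nuclei with a UMI, and Grin2b, another subunit, was at 94.2 CPM. Thalamus-like nuclei had Grin2a at 720 CPM and Grin2b at 1241 CPM. They also had the T-type calcium channel gene Cacna1g in all 14 nuclei at 312 CPM and the GABA receptor subunit gene Gabra4 at 285 CPM, against at most 55.8 CPM elsewhere. Sub-cluster 2 had the highest Grm8, a presynaptic glutamate receptor gene, at 2500 CPM, and the highest Gria2, the subunit that keeps AMPA receptors calcium-impermeable, at 2035 CPM. Sub-cluster 7 had the highest Gria1, at 2362 CPM, and Cacna1e, at 2100 CPM.

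Every library held nuclei of most sub-clusters, at low numbers. Cajal-Retzius-like nuclei numbered 3, 4 and 5 in LPA 1 to LPA 3 and 3, 3 and 1 in vehicle 1 to vehicle 3. Thalamus-like nuclei numbered 2, 2 and 1 in the LPA libraries and 2, 3 and 4 in the vehicle libraries. As shares of the members of each library they were 6.67%, 7.69% and 3.45% in the LPA libraries and 9.52%, 13.0% and 22.2% in the vehicle libraries, without overlap, which held for 1 of the 9 sub-clusters. The 8 thalamus genes summed over the members did overlap, at 4605, 3687 and 3279 CPM in the LPA libraries and 3878, 3977 and 5717 CPM in the vehicle libraries. Sub-cluster 1 numbered 11, 6 and 2 in the LPA libraries and 0, 6 and 2 in the vehicle libraries, so that LPA 1 alone held 11 of its 27 nuclei. No sub-cluster had 10 or more nuclei in every library, so LPA and vehicle were not tested within sub-clusters, and these counts received no test.

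**Figure D2:**
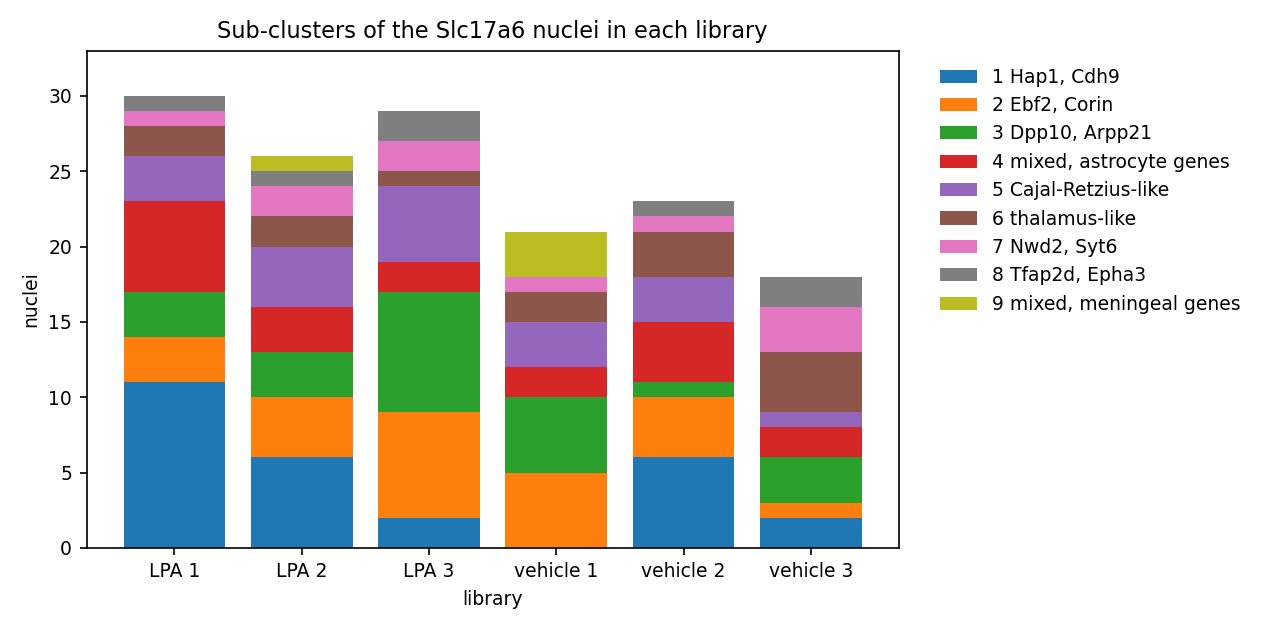
Number of Slc17a6 nuclei (vertical axis) in each of the 6 libraries (horizontal axis), stacked by sub-cluster (colours). LPA libraries held 26 to 30 nuclei and vehicle libraries 18 to 23, with 11 nuclei of sub-cluster 1 in LPA 1 and none in vehicle 1.

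The first comparison asked whether the abundance of these nuclei differed after LPA. Slc17a6 nuclei made up 0.352%, 0.253% and 0.319% of the nuclei kept in LPA 1 to LPA 3 and 0.259%, 0.185% and 0.146% in vehicle 1 to vehicle 3. The exact 95% binomial intervals, which cover counting error only, ran from 0.166% to 0.371% in LPA 2 and from 0.161% to 0.396% in vehicle 1. The groups overlapped, since LPA 2 was below vehicle 1. The mean was 0.308% ± 0.0502 in LPA libraries and 0.197% ± 0.0574 in vehicle libraries (SD, n = 3), with p = 0.2 in a two-sided exact permutation test, whose smallest possible p is 0.1 with 3 libraries per group. Of the nuclei with at least 10 Meg3 UMIs and at most 2 UMIs of Mog and Mag, they made up 1.14%, 1.01% and 1.01% in the LPA libraries and 0.871%, 0.661% and 0.443% in the vehicle libraries, without overlap (exact permutation p = 0.1). The direction depended on the UMI limits. For a comparison at equal depth, nuclei with fewer than 3000 UMIs were left out, from 1968 in LPA 1 to 4220 in vehicle 3, the others were thinned to 3000 UMIs, and the limits were lowered to 1 Slc17a6 UMI and 3 Meg3 UMIs. The 999 nuclei so chosen were 2.50%, 2.35% and 1.89% of the nuclei of that depth in LPA 1 to LPA 3 and 2.15%, 2.15% and 2.62% in vehicle 1 to vehicle 3, a difference of -0.0608 percentage points (exact permutation p = 0.9). As a share of all nuclei kept, the same 999 gave a difference of 0.0519 (exact permutation p = 0.8), so the sign rested on the denominator. Without thinning, nuclei of 3000 UMIs or more differed by 0.139 percentage points with the limits of the rule, without overlap between groups (exact permutation p = 0.1), and by -0.0099 with the lowered limits. At a limit of 2 Slc17a6 UMIs, which gave 443 nuclei, the shares were 0.927%, 0.799% and 0.758% in the LPA libraries and 0.728%, 0.620% and 0.625% in the vehicle libraries, without overlap, a difference of 0.170 percentage points (exact permutation p = 0.1). At a limit of 5, which left 25 nuclei, the difference was -0.0052. The sort for NeuN-negative nuclei may also bear on these shares, and its part in them was not tested.

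Depth did not separate the groups. The median member had 9565, 7409 and 7123 UMIs in LPA 1 to LPA 3 and 7190, 7476 and 6115 in vehicle 1 to vehicle 3. The means of the medians were 8032 ± 1335 and 6927 ± 718 UMIs (SD, n = 3, exact permutation p = 0.5). LPA 1 was the deepest, and without it the difference fell from 1105 to 339 UMIs. Mitochondrial transcripts did separate the groups: they were 0.0164%, 0.0196% and 0.0458% of the member UMIs in the LPA libraries and 0.0832%, 0.0703% and 0.0920% in the vehicle libraries. The same order was seen over all nuclei kept, where the highest LPA library was at 0.0548% and the lowest vehicle library at 0.0755%, so it was not limited to the Slc17a6 nuclei.

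**Figure D3:**
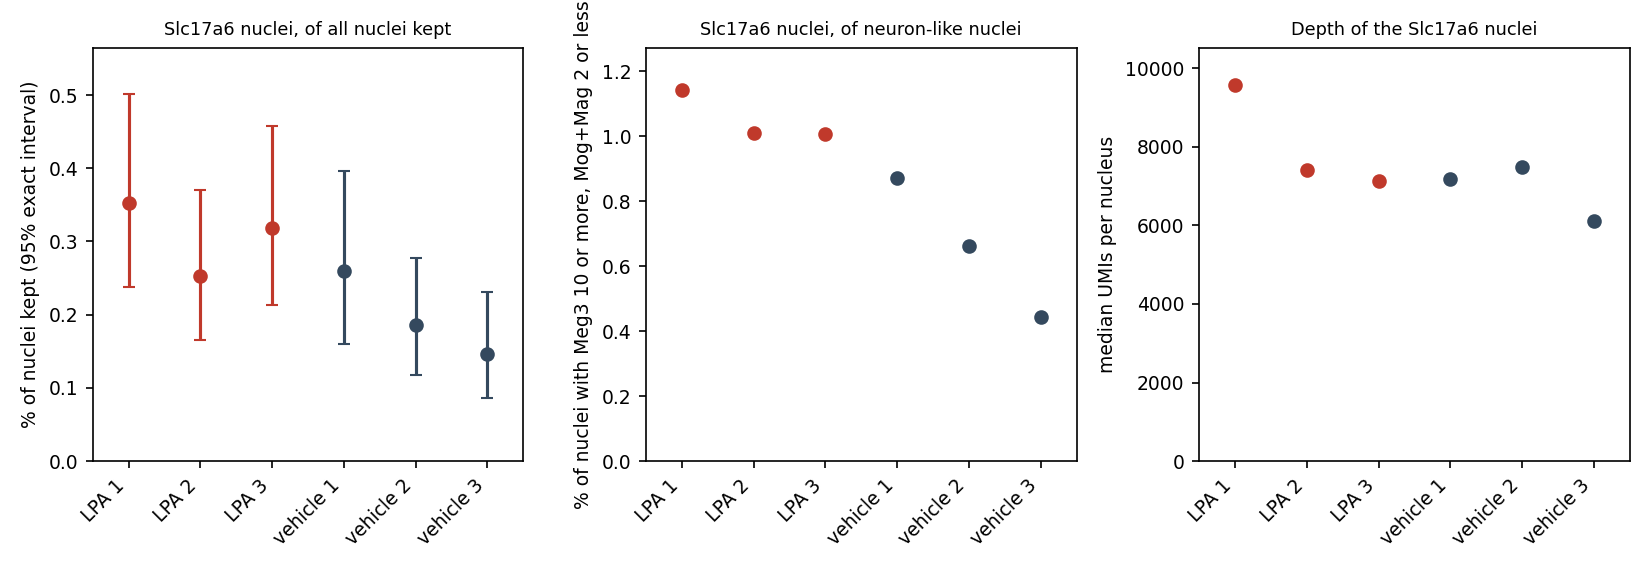
Slc17a6 nuclei in each library: as a percentage of nuclei kept with exact 95% binomial intervals (left), as a percentage of nuclei with at least 10 Meg3 UMIs and at most 2 of Mog and Mag (middle), and their median UMIs (right). LPA libraries are red and vehicle libraries dark blue, and only the middle panel shows groups that do not overlap.

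The second comparison asked which genes differed between LPA and vehicle in the Slc17a6 nuclei. UMIs were summed over the members of each library, from 152191 in vehicle 3 to 305536 in LPA 1, and tested with edgeR's quasi-likelihood test across 4386 genes. Genes of the rule and mitochondrial genes were also in the fit and its adjustment of p, but are not counted among the 4386. A gene was called at an adjusted p under 0.05 (Benjamini-Hochberg) with a log2 fold change of at least 0.25. None of the 4386 genes was called (0%). The count changed with the limits, as did the number of genes tested. Among the nuclei with 2 or more Slc17a6 UMIs, 15 of 8102 genes were called (1 higher, 14 lower). Without the filter on low counts, 22 of 18139 genes were called (11 higher, 11 lower). At an unadjusted edgeR p under 0.05 there were 225 of the 4386 genes (5.13%), 115 higher (2.62%) and 110 lower (2.51%). DESeq2, which tested 18137 genes, also called 0, with 121 at an unadjusted p under 0.05. The groups did not overlap in 10.9% of the genes tested, and the median log2 fold change was -0.01. In these sums, fewer nuclei of a kind and less RNA per nucleus cannot be told apart.

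The genes of lowest p with a higher mean in LPA are given first. For tested genes, CPM values are scaled by TMM factors to the UMIs of all genes in the fit and so lie somewhat above those of the summed members. Ndst3, which sulfates heparan sulfate, was at 235, 203 and 221 CPM in LPA 1 to LPA 3 and at 117, 71.6 and 123 CPM in vehicle 1 to vehicle 3. All LPA libraries were above all vehicle libraries, with a log2 fold change of 1.10 (SE 0.256, edgeR adjusted p = 0.803). Xylt1, which starts glycosaminoglycan chains, was at 436, 376 and 413 CPM in LPA libraries and at 247, 221 and 237 CPM in vehicle libraries (log2 fold change 0.80, edgeR adjusted p = 0.803). Slit1, a ligand of Robo receptors in axon guidance, was at 147, 173 and 197 CPM in LPA libraries and at 96.0, 71.6 and 57.3 CPM in vehicle libraries (log2 fold change 1.17). Slit1 was highest in sub-cluster 2, at 411 CPM, which held 14 LPA and 10 vehicle nuclei, 16.5% and 16.1% of the members of each group. Il1rapl2, a synaptic adhesion gene of the interleukin-1 receptor family, was at 668, 583 and 712 CPM in LPA libraries and at 295, 371 and 426 CPM in vehicle libraries. Of the 173 Il1rapl2 UMIs in LPA 1, 79 lay in 1 nucleus of sub-cluster 4, whose nuclei were all marked by Scrublet. The log2 fold change of Il1rapl2, 0.85, became -0.17 in the members with no UMI of Mog or Mag. Dpyd, Emid1, Nckap5, Lrmda, Tox and Tnrc18 completed the 10, with log2 fold changes from 0.76 (Tox) to 2.12 (Emid1) and no overlap between groups. None of the 10 passed the adjusted threshold.

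The genes of lowest p with a lower mean in LPA were mitochondrial. mt-Atp6, a subunit of the ATP synthase, was at 54.0, 39.6 and 76.9 CPM in LPA 1 to LPA 3 and at 158, 150 and 213 CPM in vehicle 1 to vehicle 3 (log2 fold change -1.59, SE 0.300, edgeR adjusted p = 0.623). The cytochrome oxidase gene mt-Co2 was at 15.4, 29.7 and 67.3 CPM in LPA libraries and at 144, 117 and 229 CPM in vehicle libraries (log2 fold change -2.13, edgeR adjusted p = 0.625). Of the 6 mitochondrial genes tested, mt-Nd4, mt-Co1 and mt-Co3 also had no overlap between groups, with log2 fold changes of -2.03, -1.46 and -1.53, while the groups overlapped in mt-Cytb (log2 fold change -1.16). The share of mitochondrial UMIs differed in the same direction over all nuclei kept, and these genes were left out of the genes taken by lowest p below. Among nuclear genes, Prkag2, a regulatory subunit of the energy sensor AMPK, came first. It was at 124, 69.2 and 149 CPM in LPA 1 to LPA 3 and at 274, 189 and 295 CPM in vehicle 1 to vehicle 3, without overlap (log2 fold change -1.13, SE 0.289, edgeR adjusted p = 0.803). At a limit of 2 Slc17a6 UMIs it was called, with a log2 fold change of -0.98 (edgeR adjusted p = 0.00872). Grin1, the obligatory subunit of NMDA receptors, was at 297, 198 and 231 CPM in LPA libraries and at 452, 378 and 393 CPM in vehicle libraries (log2 fold change -0.74, edgeR adjusted p = 0.803). Rbfox1, a neuronal splicing factor, was at 2976, 2526 and 2721 CPM in LPA libraries and at 4654, 3452 and 8553 CPM in vehicle libraries (log2 fold change -1.02). The vehicle value rested most on vehicle 3, and 1 thalamus-like nucleus of that library held 236 Rbfox1 UMIs, the most of any member. Otof, Ccdc136, Tll1, Ildr2, Cit and Atp10a followed, with log2 fold changes from -1.88 (Tll1) to -0.70 (Cit). Of the 27 Tll1 UMIs in vehicle 3, 22 lay in 1 thalamus-like nucleus.

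Several of these genes with a lower mean were high in the thalamus-like nuclei, which made up more of the vehicle members. In these nuclei Rbfox1 was at 8823 CPM, Cit at 1273, Ildr2 at 484, Ccdc136 at 467, Tll1 at 226 and Otof at 118 CPM of the sub-cluster's UMIs. With the thalamus-like nuclei left out, an alternative chosen after seeing the data, the log2 fold change was -0.12 for Cit, -0.45 for Ccdc136, -0.47 for Ildr2, -0.59 for Rbfox1, -0.93 for Prkag2, -0.63 for Grin1 and -1.31 for Atp10a, and no gene was called. Otof and Tll1 then missed the filter on low counts. Sums over 21 lists of marker genes were also taken in the summed members. The groups separated in the sums of general neuron genes, of meningeal genes and of GABA and glycine neuron genes. They also separated in Slc17a6, a list of 1 gene that the rule used. Of the single genes tested, 10.9% had groups without overlap. The 8 general neuron genes, Rbfox1 and Rbfox3 among them, summed to 9907, 9607 and 10484 CPM in LPA libraries. In vehicle libraries they summed to 12543, 11069 and 15573 CPM. Rbfox1 had much part in this, at 2523, 2134 and 2294 CPM against 3925, 2911 and 6866. Snhg11, the most abundant, overlapped, at 4278, 4188 and 4385 CPM against 5087, 4631 and 4067. Stmn2 ran the other way without overlap, at 170, 154 and 207 CPM against 127, 132 and 112, and the remaining genes overlapped. The 7 meningeal genes, none at 0, summed to 177, 100 and 170 CPM in LPA libraries and 254, 297 and 210 CPM in vehicle libraries. Of the sum in vehicle 1, Slc47a1 made up 139 CPM, and that library held 3 of the 4 nuclei of sub-cluster 9. Bmp6, the most abundant, overlapped, at 88.4, 29.2 and 36.5 CPM against 28.9, 87.9 and 65.7. The 4 genes of GABA and glycine neurons, with Gad2 the most abundant and Slc6a5 at 0, summed to 91.6, 83.5 and 89.2 CPM in LPA libraries and 17.3, 82.4 and 78.8 CPM in vehicle libraries, without overlap but with only vehicle 1 far below the others. The 9 astrocyte genes, all detected and with Gpc5 the most abundant, summed to 1627, 3378 and 2091 CPM in LPA libraries and 2254, 3126 and 1610 CPM in vehicle libraries, which overlapped. The part of these quantities in the differences was not tested.

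**Figure D4:**
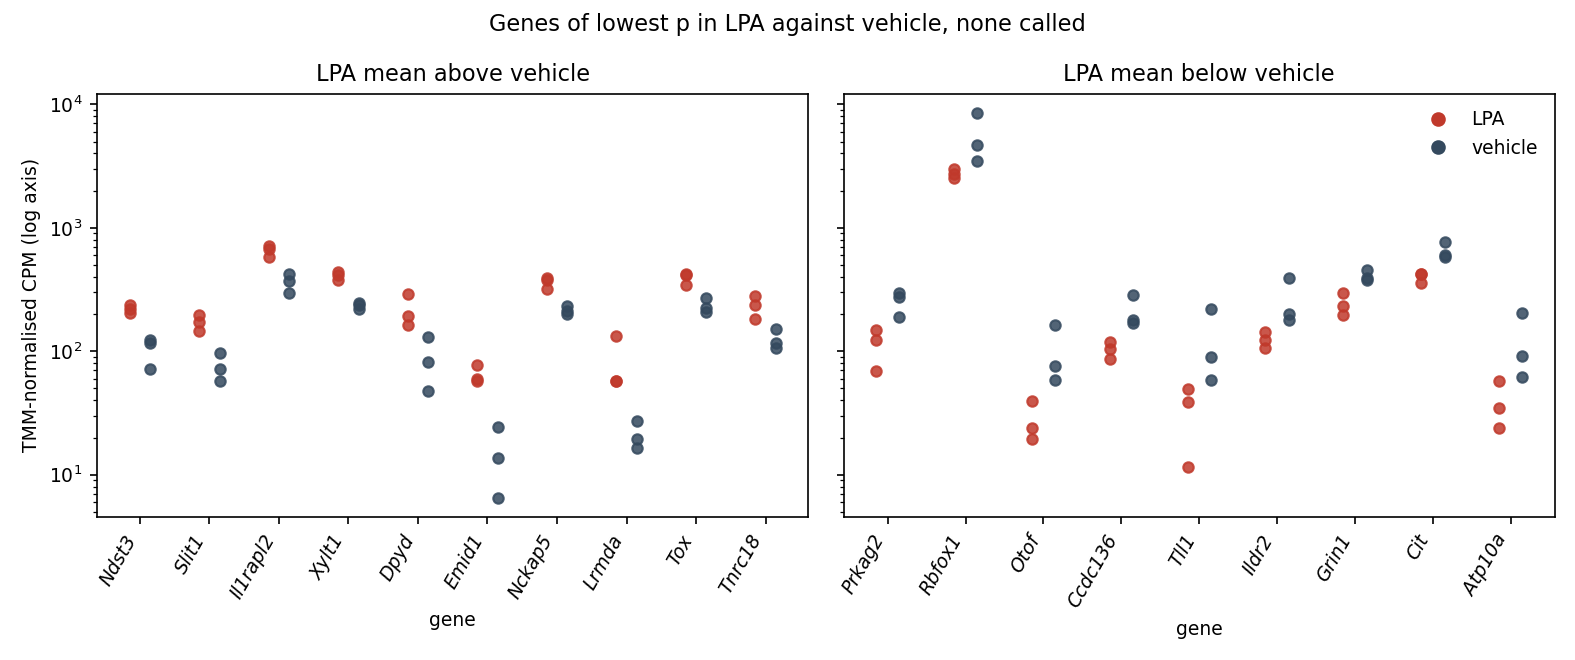
TMM-normalised CPM (log axis) of the 10 genes of lowest p with a higher mean in LPA (left) and of 9 nuclear genes with a lower mean (right), 1 point per library, LPA in red and vehicle in dark blue. The libraries of the 2 groups do not overlap in any of these genes, and none was called at an adjusted p under 0.05.

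By function, genes of synapses and excitability were compared in the same sums. Of 24 genes of transmitter release, 17 were tested, 5 with a log2 fold change above 0 and 12 below, with a median of -0.23 and none at an unadjusted p under 0.05. Syt1, for example, was at 1667, 1963 and 2125 CPM in LPA libraries and at 2235, 2019 and 3143 CPM in vehicle libraries, which overlapped. Of 18 genes of ionotropic glutamate receptors, 16 were tested, 4 above 0 and 12 below, with a median of -0.10. Grin1 and Grin2a were at an unadjusted p under 0.05. Grin2a was at 455, 485 and 529 CPM in LPA libraries and 576, 684 and 1121 CPM in vehicle libraries (log2 fold change -0.69, edgeR adjusted p = 0.881). The AMPA receptor gene Gria2 was at 1382 ± 231 and 1255 ± 172 CPM (SD, n = 3). Of 8 metabotropic glutamate receptor genes, 6 were tested, 3 on each side of 0, with a median of -0.06 and none at an unadjusted p under 0.05.

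Inhibitory receptors and ion channels had medians close to 0. Of 20 GABA and glycine receptor genes, 15 were tested with a median of -0.05, and 1 of them, Gabra4, was at an unadjusted p under 0.05. It was at 77.2, 44.5 and 48.1 CPM in LPA libraries and at 96.0, 91.2 and 196 CPM in vehicle libraries, and it was the gene found above to be highest in thalamus-like nuclei. Of 28 potassium and HCN channel genes, 19 were tested with a median of -0.15. Kcnma1 was at 1463, 2334 and 2043 CPM in LPA libraries and 1762, 2377 and 3462 CPM in vehicle libraries, which overlapped. Of 23 sodium and calcium channel genes, 18 were tested with a median of -0.05. Scn2b, an auxiliary sodium channel subunit, was the only one of them at an unadjusted p under 0.05, with 27.0, 39.6 and 9.62 CPM against 68.5, 71.6 and 73.7 CPM.

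Genes of contact and wiring were tested in larger numbers. In CPM of the summed members, the 36 synaptic adhesion genes together were at a mean of 36445 in LPA and 39511 in vehicle libraries, and 25 of them were tested with a median log2 fold change of -0.08. Cntnap2, an adhesion protein that gathers potassium channels on axons, was at 5500, 5641 and 5418 CPM in LPA libraries and 6354, 6663 and 6581 CPM in vehicle libraries, without overlap, at a log2 fold change of -0.24 (edgeR adjusted p = 0.932). Cntnap4, at a higher mean, and Cntnap5b, at a lower mean, were at an unadjusted p under 0.05 with groups that overlapped. Of 24 genes of axon growth and guidance, 20 were tested, 14 above 0 and 6 below, with a median of 0.15. Besides Slit1, Sema5a was at an unadjusted p under 0.05 with a higher mean and Robo1, a receptor of Slit proteins, with a lower mean. Robo1 was at 1722, 1503 and 870 CPM in LPA libraries and 1467, 2143 and 3086 CPM in vehicle libraries, which overlapped. None of the genes in these lists was called. Over all 4386 genes tested the median was -0.01, with 2149 above 0 and 2237 below.

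**Figure D5:**
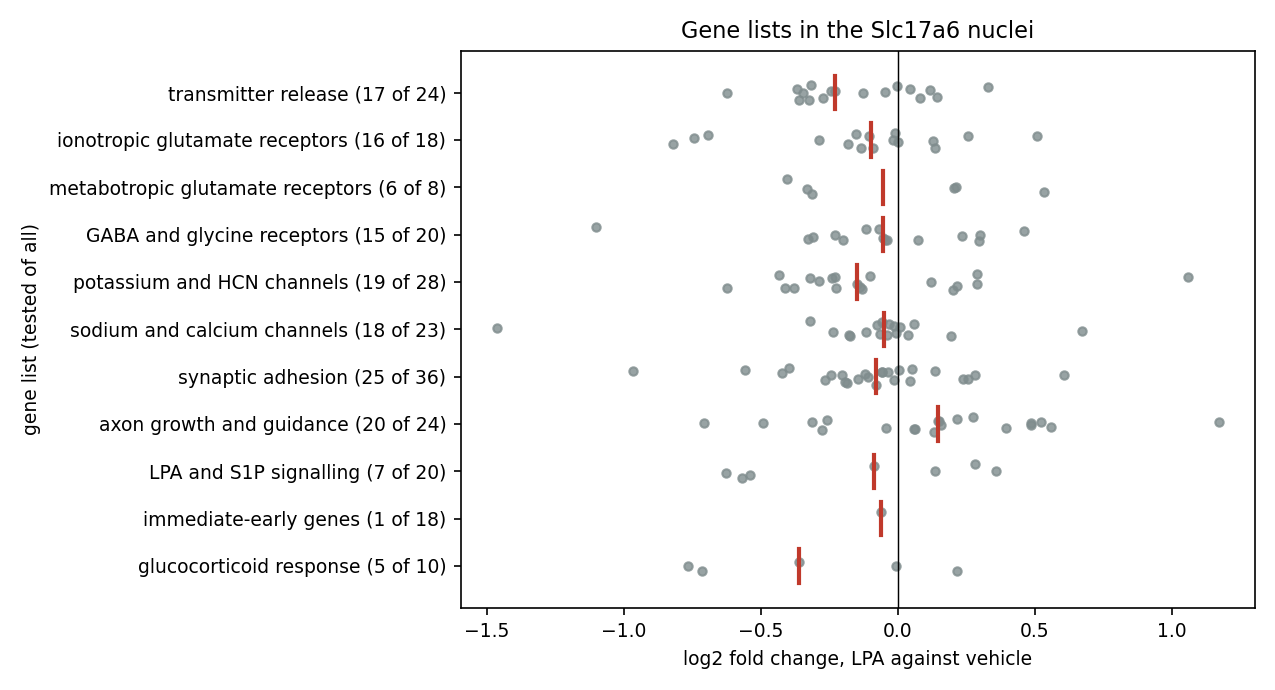
Log2 fold change of LPA against vehicle (horizontal axis) for the tested genes of 11 gene lists (rows, tested of all), 1 grey point per gene with the median as a red bar. Medians ran from -0.36 (glucocorticoid response, 5 genes) to 0.15 (axon growth and guidance, 20 genes), and no gene was called.

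The receptors of the injected lipid were hardly detected in these nuclei. Of the 6 LPA receptor genes, Lpar1 had 44 UMIs in 18 of the 147 members, and the other 5 had between 0 and 5 UMIs each. Lpar1 UMIs were 9, 12 and 9 in LPA 1 to LPA 3 and 1, 5 and 8 in vehicle 1 to vehicle 3, too few for a test. Lpar5 was found in 0 of 147 members, which allows a share of nuclei with a UMI of up to 2.04%. Enpp2, the gene of autotaxin, which makes LPA, was at 92.6, 104 and 76.9 CPM in LPA libraries and 96.0, 130 and 205 CPM in vehicle libraries, which overlapped (log2 fold change -0.63, edgeR adjusted p = 0.932). Of the 25 Enpp2 UMIs in vehicle 3, 14 lay in 1 nucleus of the mixed sub-cluster 4. Plppr4, the gene of PRG-1, a protein of excitatory synapses that takes up LPA, was at 65.6, 64.3 and 91.3 CPM in LPA libraries and at 117, 97.7 and 115 CPM in vehicle libraries. All LPA libraries were below all vehicle libraries (log2 fold change -0.57, SE 0.286, edgeR adjusted p = 0.932), and the UMIs behind it were few, 17, 13 and 19 against 17, 15 and 14. Plpp3, a phosphatase that degrades LPA, was mostly a gene of sub-cluster 4, where it was at 499 CPM beside the astrocyte genes. Of the 20 genes of LPA and sphingosine-1-phosphate signalling, 7 were tested, with a median of -0.09 and none at an unadjusted p under 0.05.

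Genes of activity and stress were sparse. Of 18 immediate-early genes, only Homer1 passed the filter on low counts, at 104 ± 31.0 and 109 ± 26.8 CPM (SD, n = 3), and Fos had 2, 6 and 5 UMIs in LPA libraries and 1, 0 and 1 in vehicle libraries. None of the 15 injury and stress genes, the 12 interferon and antigen presentation genes or the 15 neuropeptide genes passed it. Their sums were 107 and 113 CPM (injury), 103 and 80.0 CPM (interferon) and 79.5 and 100.3 CPM (neuropeptides), as means of LPA and of vehicle libraries in CPM of the summed members. Atf3, a transcription factor gene of injured neurons, had 1 UMI in all, and the most abundant gene of that list was Sox11, a factor of young neurons, with 54 UMIs. By library, the interferon sums overlapped, at 91.6, 117 and 101 CPM in LPA libraries and 104, 76.9 and 59.1 CPM in vehicle libraries. Stat2, which carries interferon signals, had 50 UMIs. It was lower in LPA libraries, at 36.0, 37.6 and 32.4 CPM of the summed members against 46.2, 43.9 and 39.4 CPM in vehicle libraries. Irf9, its partner, ran the other way. Of its 14 UMIs, 3, 3 and 6 were in LPA 1 to LPA 3 and 1, 1 and 0 in vehicle 1 to vehicle 3. The opioid precursor gene Penk had 29 UMIs, the cholecystokinin gene Cck 24 and the substance P precursor gene Tac1 21. Of 10 glucocorticoid response genes, 5 were tested with a median of -0.36, and 1, Zbtb16, was at an unadjusted p under 0.05, with 88.8, 64.3 and 139 CPM in LPA libraries and 144, 189 and 164 CPM in vehicle libraries (log2 fold change -0.77, edgeR adjusted p = 0.910). Fkbp5, a target of the glucocorticoid receptor, had 17, 7 and 7 UMIs in LPA libraries and 16, 10 and 6 in vehicle libraries.

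The last comparison asked whether the difference between LPA and vehicle was itself different in Slc17a6 nuclei and in Slc17a7 nuclei. Both kinds of nuclei came from the same 6 libraries, so the library entered the edgeR model as a block and the interaction of population and group was tested across 7726 genes. Genes of the rule and mitochondrial genes were again in the fit but not counted. In the interaction, 1 gene was called (0.0129%), with 364 genes at an unadjusted p under 0.05 (4.71%), and in the Slc17a7 nuclei on their own 1 of 8681 genes was called (0.0115%). The gene of the interaction was Npsr1, the gene of the neuropeptide S receptor, on chromosome 9 from 24097996 to 24316398 on the plus strand (GRCm38). Its UMIs in Slc17a6 nuclei were 1, 3 and 5 in LPA 1 to LPA 3 and 2, 57 and 55 in vehicle 1 to vehicle 3. In Slc17a7 nuclei they were 16, 5 and 40 in the LPA libraries and 14, 8 and 14 in the vehicle libraries. The LPA effect was lower in Slc17a6 nuclei by 4.64 on the log2 scale (difference -4.64, SE 0.776, edgeR adjusted p = 0.0486). Only vehicle 2 and vehicle 3 stood out, vehicle 1 was within the range of the LPA libraries, and the call was lost without either of them and without any of the LPA libraries. In these fits the difference ran from -5.02 without LPA 2 to -4.01 without vehicle 2. Without the nuclei marked by Scrublet, Npsr1 missed the filter on low counts. Of the 123 Npsr1 UMIs, 97 lay in 3 thalamus-like nuclei, and 69.1% lay in 2 nuclei.

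The next genes of this comparison were not called. Shisa6, an auxiliary subunit of AMPA receptors, was at 488, 205 and 677 CPM of the summed UMIs in the Slc17a6 nuclei of LPA 1 to LPA 3 and at 272, 286 and 256 CPM in those of vehicle 1 to vehicle 3. In Slc17a7 nuclei it was at 171, 96.0 and 167 CPM and at 226, 233 and 356 CPM (difference 1.56, edgeR adjusted p = 0.0968). In Slc17a7 nuclei all LPA libraries were below all vehicle libraries, and in Slc17a6 nuclei the groups overlapped. Ranbp3l, Ptgds and Slit1 followed in the same direction, with differences of 2.81, 1.76 and 1.18, and Unc13c, Thsd7b, Cdh7 and Otof in the other, with differences of -1.47, -1.0, -1.69 and -2.01. Wdr66 had 11, 4 and 4 UMIs in the Slc17a6 nuclei of the LPA libraries and none in those of the vehicle libraries.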

How the data were processed

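Nuclei of 6 mouse brains, 3 LPA and 3 vehicle, were NeuN-negative sorted and processed for 10x Genomics 3′ single-nucleus libraries. The authors aligned reads and counted UMIs with Cell Ranger 4.0.0 against a pre-mRNA mm10 reference, so that intronic reads were included, and deposited raw UMI counts for 32285 genes per barcode. From these counts, members were selected and clustered (scanpy 1.11.5, 1500 variable genes, 10 components, 10 neighbours, resolution 1, without the genes of the rule and the markers). Scrublet was run with an expected doublet rate of 0.08, and marked nuclei were kept except in the alternative named below. UMIs of the members were summed by library and tested with edgeR 4.0.16 (R 4.3.3, filterByExpr, TMM, quasi-likelihood, Benjamini-Hochberg) in the 6 libraries without covariates, and standard errors were taken from the fold change and the F statistic. DESeq2 1.42.0 was an alternative. The fits were tested on simulated counts.

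Depth of the members is given in the report, and intervals cover counting error only. Labels name the libraries as replicate brains, and p-values measure the spread between these samples. The genes named were those of the rule, the 10 of lowest p in each direction with mitochondrial, sex-linked and rule genes left out, called genes or otherwise up to 4 of highest CPM in each list, and the 5 of lowest p in each direction of the interaction. List genes at an unadjusted p under 0.05, sparse list genes and the leading genes of sub-clusters were named after their values were seen. Members, marker lists, gene lists and rules were chosen with earlier results of these data known. Alternatives changed the limits on members, normalisation, filter, sex term, replicate block and the libraries used. Coordinates were taken from GENCODE M21 (GRCm38). Some genes that these rules name are not reported here.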

Additional observations from a re-analysis of the deposited data

Results flagged for a closer look

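The effect of LPA on Npsr1 differed between Slc17a6 nuclei and Slc17a7 nuclei by -4.64 on the log2 scale (edgeR adjusted p = 0.0486), by the test of that difference. The adjusted p ran from 1.64e-11 without a filter on low counts to 0.339 without vehicle 2, at differences of -4.63 and -4.01. Of the 123 Npsr1 UMIs, 97 lay in 3 thalamus-like nuclei. Thalamus-like nuclei numbered 3 and 4 in vehicle 2 and vehicle 3, where Npsr1 was high, and 1 or 2 in each LPA library, and their part in the difference was not tested. Groups of 3 libraries were too small to look for outlying samples.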

How the results depend on the processing

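The count of 0 called genes in Slc17a6 nuclei became 22 of 18139 without a filter on low counts (11 higher, 11 lower). Dpyd, Rbfox1, Tll1 and Otof were among them. At a limit of 2 Slc17a6 UMIs it became 15 of 8102 (1 higher, 14 lower). Prkag2, Atp10a and the meningeal genes Slc47a1 and Bmp6 were among these. With each library left out it was 0 to 1. Avp was called without LPA 3, with 49 of its 92 UMIs in 1 nucleus, and Npsr1 without vehicle 1. The count was 0 in the other alternatives apart from the replicate block. With the replicate number as a block it was 1, Npsr1, among 5021 genes tested. Npsr1 was not among the 4386 genes of the main fit, so the genes tested and the block both changed. Libraries of the same number correlated at -0.0189, 0.0931 and -0.0311 in their deviations, not every library correlated best with its own number, and the numbers were therefore not taken as pairs. The interaction gave 7 of 21471 genes without the filter and 0 to 1 with each library left out. It gave 0 without the nuclei marked by Scrublet, where Npsr1 was not tested. The difference in the share of nuclei became -0.00523 percentage points at a limit of 5 Slc17a6 UMIs and, in nuclei of 3000 UMIs or more with the limits lowered to 1 Slc17a6 UMI and 3 Meg3 UMIs, -0.0608 with thinning and -0.0099 without it, where the limits of the rule gave 0.139. Log2 fold changes turned to -0.17 for Il1rapl2 with Mog and Mag at 0, to -0.047 for Tox and 0.28 for Cntnap5b at a limit of 5 Slc17a6 UMIs, to 0.082 for Zbtb16 without Scrublet-marked nuclei and to -0.19 for Cntnap4 at a limit of 2. Of 1439 values of named genes, 106 moved without turning. Tests within sub-clusters were not run, as none had 10 nuclei in every library. Leaving out the mixed, the Reln and Trp73 or the thalamus-like nuclei, and the shares of thinned nuclei among all nuclei kept and of nuclei of 3000 UMIs or more without thinning, were chosen after seeing the data.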
